A study of Arabidopsis thaliana with 32 samples.

Results

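Of 10816 features on a flower-enriched cDNA array, 97 stood above the control early in a LEAFY induction time course and were still above it late. They were picked by their own ratios of dexamethasone-treated to mock-treated RNA. A member had a mean log2 ratio of at least 0.5 over the 12 arrays at 2, 4 and 6 h and again over the 12 arrays at 10, 12 and 22 h, with at least 10 positive values in each window. Those window means are therefore a description, and the arrays at 0 h and 8 h, which the choice did not use, carry the tests. All 97 members had a positive mean at 8 h, with a median log2 ratio of 0.998 ± 0.278 (SD over 4 arrays), and at 0 h the median was -0.03 ± 0.05 (SD, n = 4).

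LEAFY is a plant transcription factor that turns a young lateral meristem into a flower. It switches on meristem identity genes such as APETALA1 and CAULIFLOWER, and with partner proteins it activates the floral organ identity genes APETALA3, PISTILLATA and AGAMOUS. A protein fused to the hormone-binding domain of the glucocorticoid receptor is held in the cytoplasm until a steroid ligand such as dexamethasone binds it, so a fused transcription factor can be released into the nucleus at a chosen moment. A gene that responds within hours and stays up can be a target of the factor, or lie downstream of one. Features on this array are known only by plate position, the file does not pair them with genes, and 0 of them matched the RefSeq gene table of Arabidopsis thaliana. None of the genes named here could be looked up among the members, no marker of callus or of floral tissue could be checked, and no sequence is shown.

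The material was callus from root explants of Arabidopsis plants with 35S:LFY-GR, in which the viral 35S promoter drives the fusion in most cells. Treated and control callus both carried it, and they differed in whether the solution contained dexamethasone, applied for 0, 2, 4, 6, 8, 10, 12 or 22 h. Each of the 32 arrays compared treated with control RNA of 1 time point, 4 arrays at each time. Replicates 1 and 3 had the treated RNA in channel 2 and replicates 2 and 4 had it in channel 1. Steroid-treated callus without the fusion, or with protein synthesis blocked, was not analysed here, so effects of the steroid itself and indirect responses cannot be told apart from direct ones.

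Arrays had values for 10646 to 10809 features. The deposited values were log10 ratios bounded at -2 and 2, and values at those bounds were set to missing here. Of the 32 arrays, 10 held over 100 values at the upper bound, among them replicate 2 at 8 h with 476. A positive value stands for more RNA after dexamethasone only if the authors divided channel 2 by channel 1. That is the usual way to form such a ratio, but the numerator is not given in the sources used here. With the division the other way round, every sign exchanges, and the 97 features were lowered early and kept low. Separate cultures and dye swaps of the same RNA are both possible sources of the 4 arrays at a time point, as the labels leave this unsaid, and p-values then describe array-to-array spread that may be technical. More transcript per cell and more cells with the transcript cannot be told apart in this bulk RNA.

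A feature needed at least 10 values in each window, which 10475 of the 10816 had and 341 lacked. An early mean of at least 0.5 was reached by 150 of these and a late mean of at least 0.5 by 310. Both were reached by 104, of which 7 had too few positive values. Of the 97 members, 65 were positive on all 24 arrays of both windows. The early threshold did more of the selecting than the late one. The members closest to it had early means of 0.5005 and 0.5123, and the nearest features outside it had 0.4986 and 0.4963 with late means of 0.57 and 0.99. On the early side 94 features missed by that threshold alone, and on the late side 4 did, the nearest at 0.47. The early means of 28 members lay under 0.6, while 22 members exceeded 1 in both windows.

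**Figure D1:**
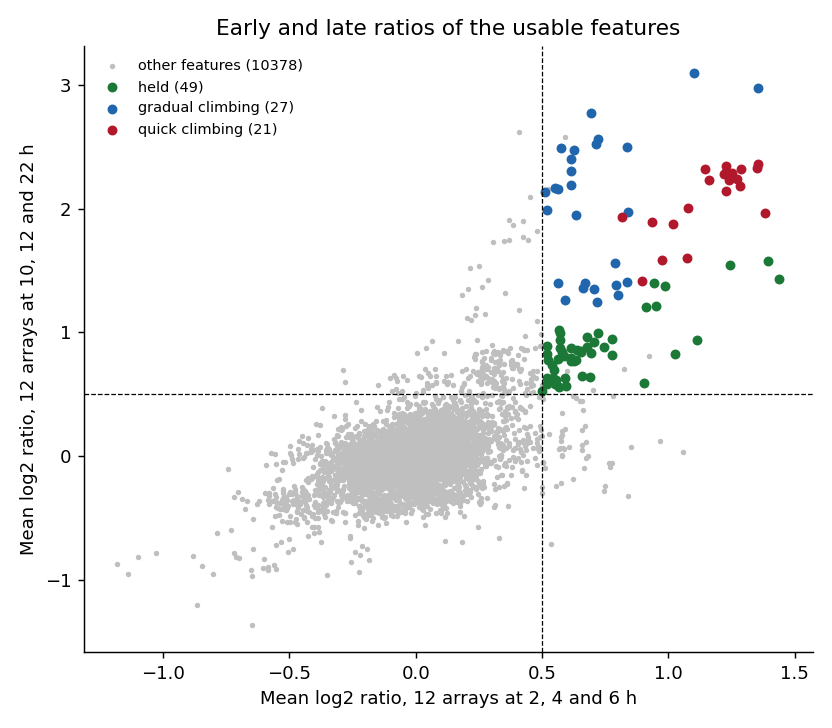
Mean log2 ratio over 12 early arrays (horizontal axis) against 12 late arrays (vertical axis) for the 10475 usable features. Dashed lines mark the threshold of 0.5, grey points are other features, and coloured points are the 97 members in the 3 shapes described below, which fan out from features of equal early and late ratio to features whose late ratio exceeded 2.

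At 8 h, 78 of the 97 members had a ratio above 0 (limma fitted to all 32 arrays, adjusted p under 0.05 over all 10567 features tested). Over all features, 2.36% were called on that side. That fit takes its variance and dye term from arrays the choice of members had used. Fitted to the 8 arrays at 0 h and 8 h alone, which share no array with the choice, limma also called 78 members, against 1.39% of all features, and 72 members were called in both fits. If replicates 1 and 2, and 3 and 4, are averaged as dye swaps of the same RNA, 57 of 96 members were called, against 1.3% of all features. The direction held array by array. All 4 arrays at 8 h were positive for 87 of the 95 members with all 8 values at 0 h and 8 h, against 9.85% of all such features. Before the swapped arrays were turned, the 8 h median of the members was positive on replicates 1 and 3 (1.02 and 0.60). It was negative on replicates 2 and 4 (-1.14 and -1.24), so the sign followed the channel that held the treated RNA.

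The 0 h arrays gave no positive call for any feature, so calls there cannot compare the members with the rest. limma called 0 of the 97 members and 0% of all features on the positive side there, with 0 members and 293 of 10567 features at an unadjusted p under 0.05 in either direction. The same fit to the 8 arrays alone also called 0, with 1 member and 210 of 10659 features at an unadjusted p under 0.05. Means at 0 h ran from -0.34 to 0.35 and were above 0 for 41 members. All 4 arrays were positive at 0 h for 6 of 95 members, a larger share than the 2.96% of all features. The lowest 8 h value exceeded the highest 0 h value in 68 of the 95 members, against 2.88% of all features.

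The difference between 8 h and 0 h, which also carries the error of the 0 h arrays, was called for 47 members, against 0.672% of all features (limma, all 32 arrays). This count was not stable. It was 22 in the fit to the 8 arrays at 0 h and 8 h, against 0.225% of all features. Without replicate 1, 2, 3 or 4 at all time points it was 19, 8, 38 and 13. The positive calls over all features changed with it, to 31 of 10217, 9 of 10409, 61 of 10333 and 14 of 10082.

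The 2 members named here had the highest means at 8 h among those with 4 values. That choice used the 8 h values, so it favours their 8 h means, p-values and distance from 0 h. GP070F8 gave log2 ratios of 1.33, 2.10, 1.69 and 2.30 on replicates 1 to 4 at 8 h. At 0 h it gave -0.08, -0.24, 0.18 and -0.14, so the lowest 8 h array lay well above the highest 0 h array. Its mean at 8 h was 1.85 (SE 0.33, limma adjusted p = 0.000658), a 3.61-fold ratio. The call was lost with replicates averaged in pairs (adjusted p = 0.0528) and kept under every other alternative run. GP000A3 gave 1.56, 2.84, 1.34 and 1.24 at 8 h. Its highest value came from replicate 2, the array with 476 values at the bound. At 0 h it gave 0.40, 0.19, 0.36 and -0.14, again below every 8 h array. Its mean at 8 h was 1.75 (SE 0.23, limma adjusted p = 3.03e-05). With replicate 2 left out at all time points, the 8 h coefficient fitted beside the dye term was 1.29 (limma adjusted p = 0.00066).

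The other time points chose these features and are given as a description. GP070F8 gave 1.26, 1.32, 1.09 and 1.84 on replicates 1 to 4 at 2 h. At 6 h it gave 0.46, 0.90, 0.91 and 2.56, and at 22 h it gave 2.08, 1.26, 3.16 and 3.59. Its arrays drew apart at 6 h and 22 h, with replicate 4 the highest both times. GP000A3 gave 2.08, 1.23, 0.98 and 0.62 at 2 h. At 22 h it gave 2.62, 2.34, 2.46 and 1.65. Replicate 4 was its lowest array both times, the opposite of GP070F8.

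The 19 members that limma did not call at 8 h had means of 0.32 to 1.58 and adjusted p of 0.0545 to 0.641. They were not simply the weakest features. The member ranked 8 by its 8 h mean gave 1.42, 1.83, 0.67 and 2.41 on replicates 1 to 4. All were positive, and it was not called (limma adjusted p = 0.0743). The fit takes its variance from the arrays of every time point. At 4 h this member gave 5.87 on replicate 1, against 0.71, 0.21 and 0.92 on replicates 2 to 4. The part of that value in the missed call was not tested. The member ranked 97, the lowest, gave 0.65, -1.36, 0.69 and 1.30, with replicate 2 alone on the negative side. The member ranked 87 had the same form, with 0.34, -1.26, 1.73 and 1.60. For both, the array that went the other way was the one with 476 values at the bound, and its part in these values was not tested. The median SD over the 4 arrays at 8 h was 0.37 for the members and 0.27 for all usable features.

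**Figure D2:**
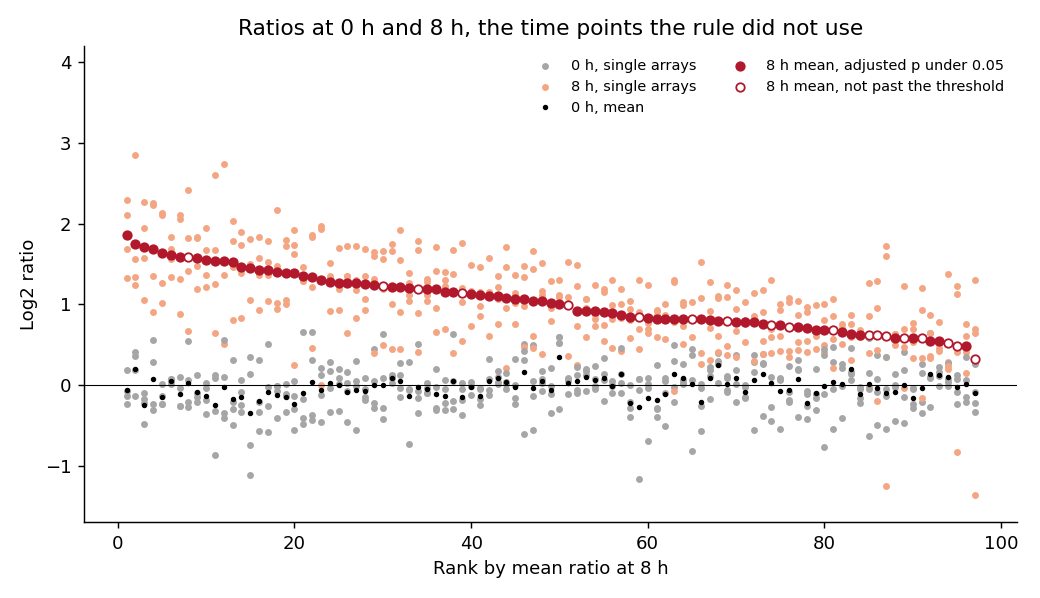
Log2 ratios (vertical axis) of the 97 members at 0 h (grey points for single arrays, black for the mean) and 8 h (orange points for single arrays, red for the mean), ordered by 8 h mean (horizontal axis). Filled red circles are the 78 members past the threshold at 8 h and open ones the other 19, and the 0 h means stay between -0.34 and 0.35 along the whole order.

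The median over the 97 members was lowest at 2 h and highest at 22 h among the time points that chose them, with a lower value at 12 h than at 10 h. Averaged over 4 arrays, it was 0.52 ± 0.10 at 2 h and 0.82 ± 0.14 at 4 h, and it ended the early window with 0.88 ± 0.07 at 6 h. In the late window it began with 1.17 ± 0.11 at 10 h, stood at 1.08 ± 0.08 at 12 h and closed at 1.33 ± 0.28 after 22 h (SD, n = 4 each). At 2 h, 48 members had a mean of at least 0.5, and at 4 h 91 had. Taken in order, 48 members first reached 0.5 at 2 h, 44 at 4 h and 5 at 6 h. Single arrays kept the same side throughout. The lowest array median from 2 h on was 0.39, on replicate 3 at 2 h, and the highest at 0 h was 0.04. At 22 h the arrays were wider apart, with 1.45, 0.98, 1.63 and 1.26 on replicates 1 to 4.

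Most members ended higher than they began. The late mean exceeded the early mean in 89 of 97, with a median difference of 0.46 and quartiles of 0.18 and 1.04. Over all usable features the quartiles of that difference were -0.09 and 0.10. The highest mean was that of 22 h for 70 members. It was the 12 h mean for 7 members, the 10 h mean for 5 and the 8 h mean for 3, and for 6 each it was the 6 h or the 4 h mean. The median difference was 0.23 on replicate 1, 0.33 on replicate 2, 0.62 on replicate 3 and 0.59 on replicate 4, so replicates 3 and 4 gave larger late gains in both dye orientations.

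Features that reached 0.5 in a single window had lower medians at 8 h, and this difference was not tested. Members had to reach 0.5 both before and after 8 h, which favours a higher 8 h median. As for the members, at least 10 positive values were asked for in the window that reached 0.5. The 12 features with such an early mean of at least 0.5 and a late mean below 0.5 had a median of 0.41 ± 0.17 (SD, n = 4) at 8 h, and 4 of the 12 were called. The 197 features with such a late mean of at least 0.5 and an early mean below 0.5 had a median of 0.54 ± 0.15. Of these, 94 of the 196 tested were called. Both sets had positive medians in their other window as well, at 0.32 at 10 h for the 12 features and 0.46 at 6 h for the 197. For both sets, the share called over all features was 2.36%. The corresponding median of the members, 0.998 ± 0.278, was above both, and its lowest array, 0.60, lay within the range of 0.22 to 0.63 and of 0.32 to 0.64 covered by the arrays of these sets. Across the 97 members the 8 h mean had a Pearson correlation of 0.78 with the early mean and 0.79 with the late mean, a description over features that share arrays and may share transcripts. Between the 2 h and 22 h means r was 0.19.

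**Figure D3:**
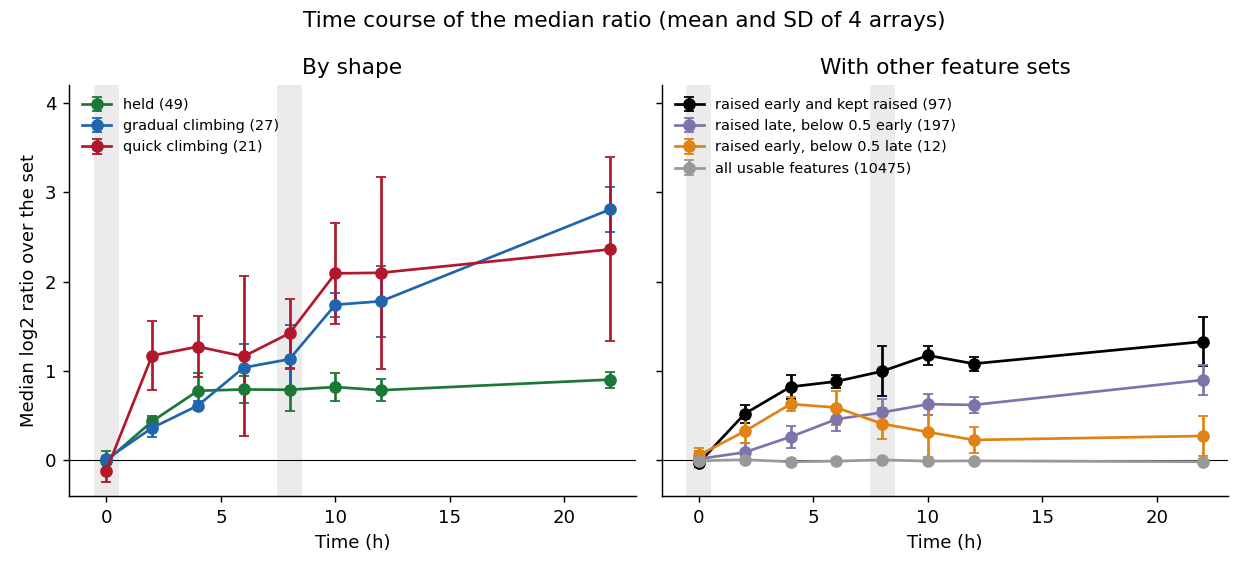
Median log2 ratio over a set (vertical axis) against time in h (horizontal axis), as the mean and SD of 4 arrays, for the 3 shapes of member (left) and for all 97 members beside the other sets and all usable features (right). Grey bands mark 0 h and 8 h, the time points not used to choose features, where the members' medians were -0.03 and 0.998.

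The 97 members took 3 shapes over time, divided here by limits set after the values were seen and so not tested. The first shape, called held, covers 49 features whose late mean was less than 0.5 above the early mean, or was at or below it, as in 8 of them. Their array medians averaged 0.44 ± 0.06 at 2 h and 0.78 ± 0.20 at 4 h, then 0.79 ± 0.23 at 8 h, 0.79 ± 0.12 at 12 h and 0.90 ± 0.09 at 22 h (SD, n = 4). From 4 h to 22 h these medians moved by less than the largest of their SDs. At 8 h, 39 of the 49 were called in the fit to 32 arrays, against 2.36% of all features. In the fit to 8 arrays 36 were called, against 1.39%.

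The second shape, gradual climbing, covers 27 features that gained at least 0.5 and had a mean under 0.7 at 2 h. Their medians averaged 0.36 ± 0.11 at 2 h, a low start that the limit of 0.7 sets, and 0.61 ± 0.05 at 4 h. They then reached 1.13 ± 0.38 at 8 h, 1.74 ± 0.14 at 10 h and 2.81 ± 0.25 at 22 h (SD, n = 4). The highest mean fell at 22 h for 26 of the 27. All 11 members with a mean over 3 at 22 h had this shape. The highest of them gave 3.52, 4.26, 4.00 and 3.50 on replicates 1 to 4 at 22 h, with no overlap with its values of 1.37, 0.50 and 2.74 on replicates 1, 3 and 4 at 8 h, where replicate 2 was at the bound. At 8 h, 20 of the 27 were called in the fit to 32 arrays, against 2.36% of all features. In the fit to 8 arrays 21 were called, against 1.39%.

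The third shape, quick climbing, covers 21 features that gained at least 0.5 and already had a mean of at least 0.7 at 2 h. Their medians averaged 1.17 ± 0.39 at 2 h and 1.27 ± 0.34 at 4 h, which are ratios of 2.25-fold and 2.42-fold. They stood at 1.42 ± 0.39 at 8 h, 2.09 ± 0.56 at 10 h and 2.36 ± 1.03 at 22 h (SD, n = 4). The spread between arrays differed by time point, with SDs of 0.89 at 6 h and 1.07 at 12 h. On replicates 1 to 4 the medians were 1.38, 0.82, 0.87 and 1.62 at 2 h. At 22 h they were 2.01, 1.07, 3.04 and 3.325, so the climb was larger on replicates 3 and 4 than on replicates 1 and 2. At 8 h, 19 of the 21 were called in the fit to 32 arrays, against 2.36% of all features. In the fit to 8 arrays 21 were called, against 1.39%. For 8 h minus 0 h in the fit to 32 arrays, limma called 4 of these 21. It called 18 of the 27 gradual and 25 of the 49 held features, against 0.672% of all features. That fit takes its variance from all 32 arrays, and this contrast is not given by shape for the fit to 8 arrays.

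**Figure D4:**
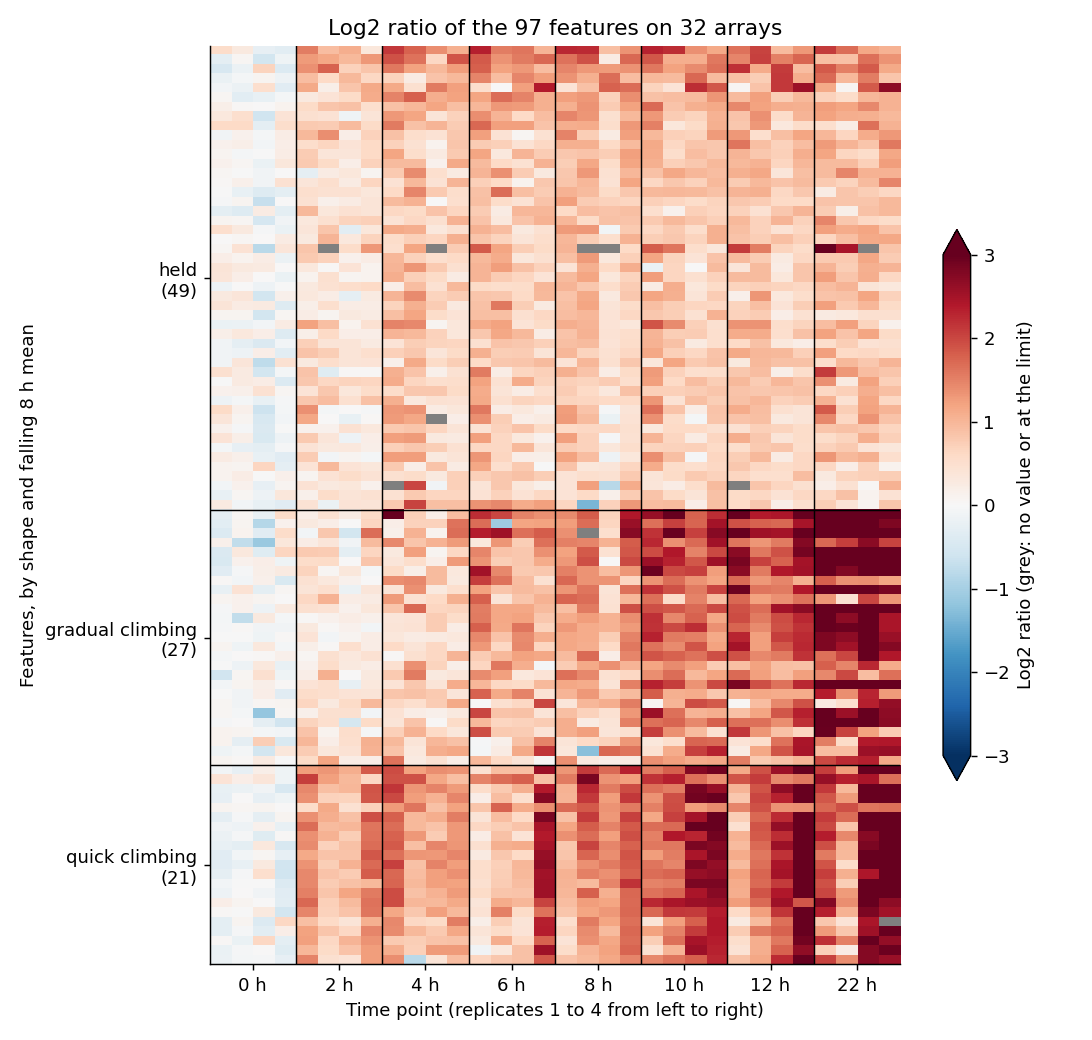
Log2 ratio of each of the 97 members (rows, by shape and by falling 8 h mean) on each of the 32 arrays (columns, 4 per time point). Colours run from blue below 0 to red above 0 and end at 3, and the quick climbing features at the bottom darken and pale together from array to array.

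Within the quick climbing features, single arrays moved many features together. After the mean of each time point and the dye term were removed from each feature, the mean correlation between pairs of quick climbing features was 0.66 over 32 arrays, against 0.20 for gradual, 0.16 for held and 0.0022 for all 9791 features with a value on every array. On the 8 arrays at 0 h and 8 h alone it was 0.58, 0.25, 0.25 and 0.00054. Members were linked where this correlation was at least 0.8, a limit set after the values were seen. Of the 92 members with a value on every array, 42 fell into 7 linked groups, and counting each group once leaves 57 units. In 51 of these 57 units at least 1 member was called at 8 h, against 2.36% of all single features. A group passes this count more easily than a single feature, since 1 call is enough. No such units were formed from other features. Whether linked features hold clones of the same transcript was not tested, as no clone sequence or gene name was used.

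The largest linked group held 23 features from 21 plates, 18 of them quick climbing, and the named GP070F8 was among them. Pairwise correlations within it had a median of 0.88 and ran from 0.46 to 0.98. Its mean ratio at 8 h was 0.82, 1.34, 1.30 and 1.76 on replicates 1 to 4, with the SD over its features between 0.27 and 0.74. At 22 h it was 1.73, 0.94, 2.78 and 3.06, and at 12 h it was 0.76, 1.45, 2.12 and 3.09. Replicates 3 and 4 lay above replicates 1 and 2 without overlap at 6, 10, 12 and 22 h, by 0.996, 1.06, 1.502 and 1.58 on average, and overlapped with them at 0, 2, 4 and 8 h. Each side of that division holds both dye orientations. Replicates 1 and 2 at 10 and 12 h and replicate 1 at 6 and 22 h are among the 10 arrays with over 100 values at the bound, whose part was not tested, while replicate 2 at 22 h, the lowest of its time point, had under 100. Without this group, 60 of the remaining 74 members were called at 8 h, against 2.36% of all features.

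The second linked group held 8 features from 8 plates, all of the held shape, and ran the other way between replicates. Its mean at 8 h was 1.34 and 1.15 on replicates 1 and 2 and 0.21 and 0.68 on replicates 3 and 4. The same order was there at 0 h, with 0.40 and 0.24 against -0.41 and -0.08. At 4 h it was 1.29 and 1.24 against 0.45 and 0.52. At 22 h the values came together at 1.33, 0.99, 1.02 and 0.80. Of its 8 features 4 were called at 8 h, against 2.36% of all features. Another group of 3 held features had means of 0.72 to 0.78 at 8 h and 0.90 to 0.95 at 22 h, and the other 4 groups were pairs, of which 2 were pairs of features from a single plate.

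**Figure D5:**
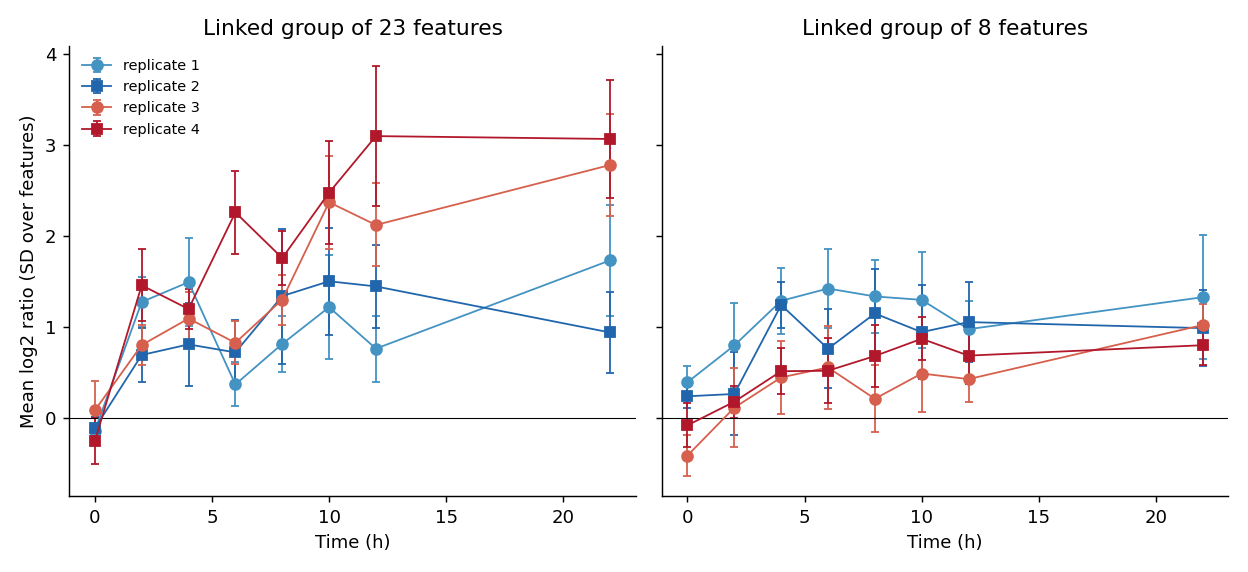
Mean log2 ratio (vertical axis) against time in h (horizontal axis) on each replicate, with the SD over features, for the linked group of 23 features (left) and that of 8 features (right). On the left replicates 3 and 4 (red) reach 2.78 and 3.06 at 22 h against 1.73 and 0.94 for replicates 1 and 2 (blue), and on the right replicates 1 and 2 are the higher ones from 0 h to 12 h.

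The members came from 67 of the 114 plates, and 46 plates held a single member. Plate 005 gave the most, with 7 members among its 96 features, followed by plate 001 with 4. The dye terms of the members ran from -0.40 to 0.20, with a median size of 0.10, against 0.08 for all features tested, and the demand for 10 positive values in each window limits how large they can be. Of the 97 members, 5 lacked a usable value on at least 1 of the 32 arrays, through 9 values at the bound and 1 that was missing. Features often at the bound could not become members, since 10 values were needed in each window.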

How the data were processed

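Two-colour cDNA arrays were read from a table of log10 ratios that the authors deposited, 1 value per feature and array. Per the labels, Rosetta Resolver was used. Not given in the sources used here are the background correction, the normalization and the numerator, and the log10 scale was inferred from array medians near 0 and bounds of exactly -2 and 2. Values were multiplied by 3.3219 to give log2 ratios, and values at the bounds were set to missing. Replicates 2 and 4 were turned. Before turning, the mean correlation over features was -0.06 at 8 h between arrays of opposite orientation and 0.21 between arrays of the same one. At 0 h it was 0.17 and 0.18. The direction is not settled. The lowest correlation between arrays of the same orientation was -0.31, for replicate 1 at 0 h and at 2 h.

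limma 3.58.1 (lmFit and eBayes, R 4.3.3) was used to fit 1 coefficient per time point and a dye term over the 32 arrays, for features with a value in each orientation at every time point. It had 23 residual degrees of freedom, and the fit to the 8 arrays at 0 h and 8 h had 5. Tests were two-sided, with Benjamini-Hochberg adjustment over all features and a threshold of 0.05. The model code was tested on simulated data. The number of arrays limits the precision. The members and comparisons were chosen with earlier results of these data known. With no gene names, at most 2 members were to be named, those with the highest 8 h mean and 4 values there. Alternatives were limit values kept, other scalings, no dye term, averaged pairs, a replicate block, each replicate left out, the 10 arrays with many limit values left out, complete features, other thresholds and the turned sign.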

Additional observations from a re-analysis of the deposited data

Results flagged for a closer look

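Of 48 groups of 4 arrays, 2 held an array far from the other 3 by Dixon's test, where chance gives about 1 in 20, or 2.4. The median of all members at 10 h was 1.33 on replicate 1, above the other 3 arrays. The median of the gradual climbing features at 6 h was 1.43 on replicate 1, above the other 3. Both arrays are among the 10 with over 100 values at the upper limit, and their part was not tested.

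Both named features were picked for their high 8 h means, which favours a difference from 0 h. For both, the ratio differed between 8 h and 0 h by the test of the difference itself. It was 1.92 for GP070F8 (limma adjusted p = 0.038) and 1.54 for GP000A3 (adjusted p = 0.0145), each with all 4 arrays at 8 h above all 4 at 0 h. For GP070F8 the adjusted p ran from 0.0039 to 0.394 over the alternatives, and the call was lost without replicate 1, 2, 3 or 4 (0.0975, 0.129, 0.142 and 0.077). It was also lost with limit values kept (0.0563), with no dye term (0.0535), with arrays scaled (0.086), with pairs averaged (0.394) and without the 10 arrays (0.0989). For GP000A3 it ran from 0.000424 to 0.233, and the call was lost without replicate 1 or 2 (0.0665 and 0.0678) and in the fit to the 8 arrays at 0 h and 8 h (0.198). It was also lost with pairs averaged (0.233) and without the 10 arrays (0.12).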

How the results depend on the processing

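No alternative turned the direction apart from the turned sign itself. For the shifts below, the cause was not tested. Members called at 8 h numbered 67 to 74 with 1 replicate left out and 60 without the 10 arrays with many limit values, against 78. Under all 13 alternatives apart from the turned sign 45 members were called, and the same count over all features was not made. Over all features the positive calls at 8 h went from 249 to 148 in the fit to 8 arrays and without replicate 4, to 136 with pairs averaged, to 137 without the 10 arrays and to 392 with the replicate block. Calls at 0 h stayed at 0 members (limma, 0 to 5 at an unadjusted p under 0.05). Members called for 8 h minus 0 h went from 47 to 22 in the fit to 8 arrays, 13 with pairs averaged, 22 without the 10 arrays, and 8 to 38 with 1 replicate left out. Over all features that contrast went from 71 positive calls to 24, 20, 30 and, with 1 replicate left out, 9 to 61, and to 46 with no dye term.

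The replicate number as a block raised the member counts to 92 at 8 h and 63 for 8 h minus 0 h, and to 131 features in all for the latter. Same-numbered arrays at 0 h and 8 h had residual correlations of 0.04, 0.06, -0.09 and 0.11, and 1 of the 4 arrays at 0 h correlated best with its own number, so the numbers were not taken as pairs. The rule found 92 to 109 features with 1 replicate left out, 137 at a threshold of 0.4 and 68 at 0.6. With the sign turned, 78 and 47 members were called on the negative side, the medians became -0.998 at 8 h, 0.026 at 0 h and -0.46 for late minus early, GP070F8 and GP000A3 stood at -1.85 and -1.75, and the rule found 28 other features. Without signal values, features of little signal could not be told from the rest, and features with many limit values were not eligible.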

Other observations

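Among the 9791 features with a value on every array, 5 that were not members followed the array-to-array deviations of the linked group of 23 with a correlation of at least 0.8. All 5 had negative early and late means, from -0.65 to -0.14 early and from -0.97 to -0.36 late. Whether they were lowered was not tested. It was their deviations, with time means and the dye term removed, that moved up and down with those of the group. Over time the ratios went opposite ways. In all 5 the late mean lay below the early mean, while the group had means of 1.06 at 2 h and 2.13 at 22 h. The correlation was computed on the same arrays that defined the group, and its source was not tested.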
